A study of Mus musculus with 6 samples.

Results

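The genes of the apoptosis machinery were examined in the stria vascularis, the ion-transporting epithelium of the cochlear lateral wall, of mice that lack pendrin (Slc26a4-/-) and of Slc26a4+/+ mice. Members were chosen by gene symbol, with earlier results of these data known. They were the BCL2 family, the caspases, the BIRC family of inhibitor of apoptosis proteins (IAPs), the AIF family, and 29 listed partners. On the Affymetrix mouse 430 2.0 array these were 126 of 45037 probe sets and 53 of 18193 genes, in which the near-identical Bcl2a1 copies, which share their probe sets, were counted as 1 gene. Of the listed partners, 26 had a probe set under their own symbol, and Bax, Ripk1 and Trp53 were not analysed here.

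Apoptosis is run by proteins that oppose each other at the outer membrane of the mitochondrion. Survival members of the BCL2 family hold the pore-forming members in check, BH3-only proteins relieve that hold, and the opened membrane releases cytochrome c, which assembles an apoptosome that activates initiator and then executioner caspases. Death receptors reach the same caspases from the cell surface, IAPs block them, and p53 acts on the balance through its target genes. In the stria vascularis, marginal cells secrete potassium into the endolymph, intermediate cells carry the channel that generates the endocochlear potential, and basal cells seal the tissue. Pendrin is an anion exchanger, and mice without it are deaf.

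Slc26a4+/+ and Slc26a4-/- mice were adults of the 129S6 strain, with 3 arrays per genotype, which are called the controls and the knockouts. Each array carried RNA pooled from a pair of animals and amplified repeatedly before labelling. The knockout was in the whole body and not limited to the stria. The p-values measure the spread between pooled arrays, and the number of arrays limits the precision.

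The Slc26a4 probe set read 1354, 1262 and 793 in the controls and 520, 717 and 618.5 in the knockouts. All 3 knockout arrays lay below the controls, but the difference of -0.85 on the log2 scale did not pass the test (adjusted p = 0.119), and no source used here states whether its probes lie inside the deleted part. The arrays also differed in sex-linked transcripts: Xist read 771 to 3358 in the controls and 5530 to 5863 in the knockouts, and Y-linked Eif2s3y read 640 to 1541 against 3.1 to 3.6, so that genotype and the sex of the pooled animals cannot be told apart. Gapdh control probes gave a 3′ over 5′ ratio, a measure of RNA length after amplification, of 2.25 to 10.5 in the controls and 3.34 to 3.80 in the knockouts. Background was taken from 44 probe sets of olfactory receptors, taken as silent in this tissue, as their 95th percentile, and lay at signals of 187 to 319. Each marker listed for marginal, intermediate and basal cells was above background on at least 1 array.

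Most of the apoptosis machinery did not pass the test between the genotypes, and the members that did were a small, mixed group. Aifm3 and Cdkn1a fell, and the Bcl2a1 copies rose. Of the 53 genes, each represented by its brightest probe set, 1 was higher and 2 were lower in Slc26a4-/- mice at an adjusted p under 0.05 (limma, adjusted over all 45037 probe sets). Over all genes, 2.68% were called in either direction, 1.88% higher and 0.803% lower. The 3 called members were 5.66% of the 53, a share that rests on 3 genes.

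The median log2 difference was 0.04 over the members and -0.03 over all genes. The genotypes did not overlap in 12 of the 53 genes, 8 higher and 4 lower, which was 22.6% of them beside 20.9% of all genes (11.2% higher and 9.73% lower). At an unadjusted p under 0.05, 10 members differed, or 18.9%, beside 14.9% of all genes. By these counts of overlap and of unadjusted p the members lay close to all genes of the array, whereas their called share was 5.66% beside 2.68%.

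Counted by probe set, 4 were higher and 3 lower of 126, or 5.56%, beside 1.73% of all probe sets called (1.19% higher and 0.54% lower). These belonged to 5 genes, and no gene had probe sets called in opposite directions. In Mcl1 and Bcl2 the brightest probe set was not called and another was. Of 19 genes with more than 1 probe set above background, 12 had all differences of 1 sign. The signs differed in Bcl2l13, Bik, Cdkn1a, Cflar, Mdm2, Parp1 and Xiap. At least 2 arrays of a genotype were above background for 36 genes, whereas 17 genes were below background on all 6 arrays in every probe set.

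**Figure D1:**
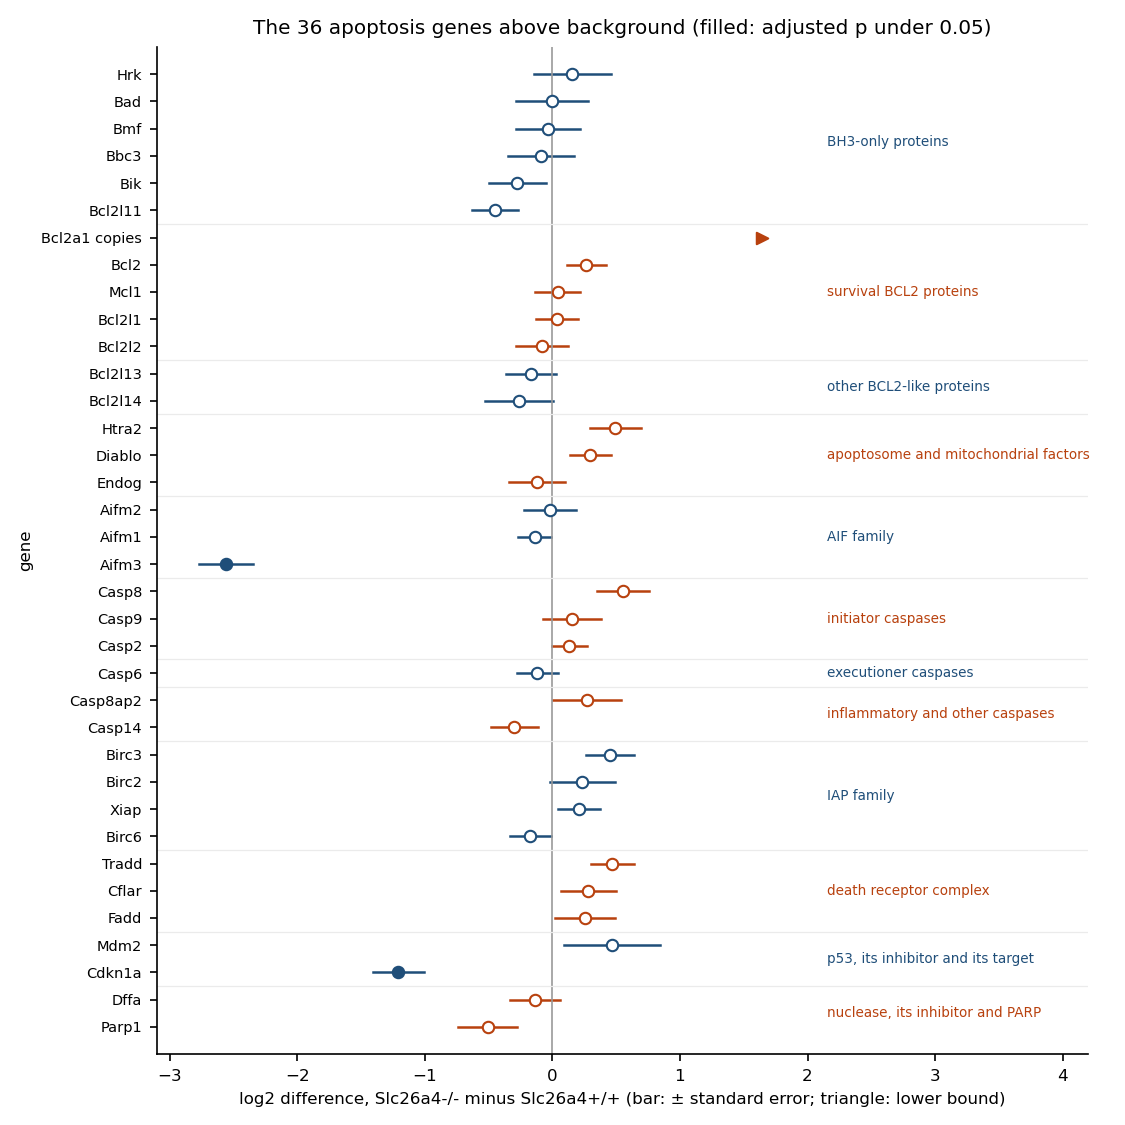
The log2 difference between Slc26a4-/- and Slc26a4+/+ arrays (horizontal axis, bars are ± standard error) for each of the 36 apoptosis genes above background, grouped by role. Aifm3 at -2.56 and Cdkn1a at -1.21 lie to the left and the Bcl2a1 copies, drawn at their lower bound, to the right of a group of genes near 0.

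Aifm3 showed the largest fall of the members. It encodes an AIF-like protein, related to the mitochondrial oxidoreductase AIF (Aifm1). The upstream bases of Aifm3 are shown because it was the member with the largest fall. They come from RefSeq on the plus strand at chr16:17489527-17489676 (GRCm38.p6), end at the annotated start and have the GC-box letters GGGCGG, on either strand, in capitals.
Aifm3: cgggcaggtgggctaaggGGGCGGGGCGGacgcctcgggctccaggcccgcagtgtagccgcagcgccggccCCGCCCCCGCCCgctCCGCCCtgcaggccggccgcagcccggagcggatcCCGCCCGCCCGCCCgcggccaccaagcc
GGGCGG, whose matches may overlap one another, stood in the 250 bases before the start in 32.7% of 32851 promoters of the table, and in 31 of the 47 member genes with a promoter entry. The former counts promoters and the latter counts a gene where any of its starts matched, so they are not like shares. A match is a description of the letters, which were chosen after the sequences were seen.

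The brighter Aifm3 probe set read 2857, 4058 and 4946 in the controls and 564, 788 and 631 in the knockouts. Every knockout array lay below every control array, and all 6 were above background. The signal fell by 2.56 ± 0.21 (SE) on the log2 scale, 5.89-fold lower in the knockout (limma adjusted p = 0.000361). The other Aifm3 probe set read 958.5, 754 and 728 against 188, 139 and 179.5. Again the genotypes were apart, and 1 of the 3 Slc26a4-/- arrays was above background. This probe set fell by 2.27 ± 0.22 on the log2 scale (adjusted p = 0.000855). In bulk tissue, fewer cells of a type and less RNA per cell cannot be told apart.

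The other members of the AIF family did not pass. Aifm1 read 3027, 2784 and 2504 in the controls and 2530.0, 2525 and 2478 in the knockouts. The groups overlapped by a narrow margin, with a difference of -0.14 (95% interval -0.43 to 0.15, adjusted p = 0.750). Aifm2, which encodes the CoQ oxidoreductase that opposes ferroptosis, differed by -0.02 (-0.47 to 0.43).

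**Figure D2:**
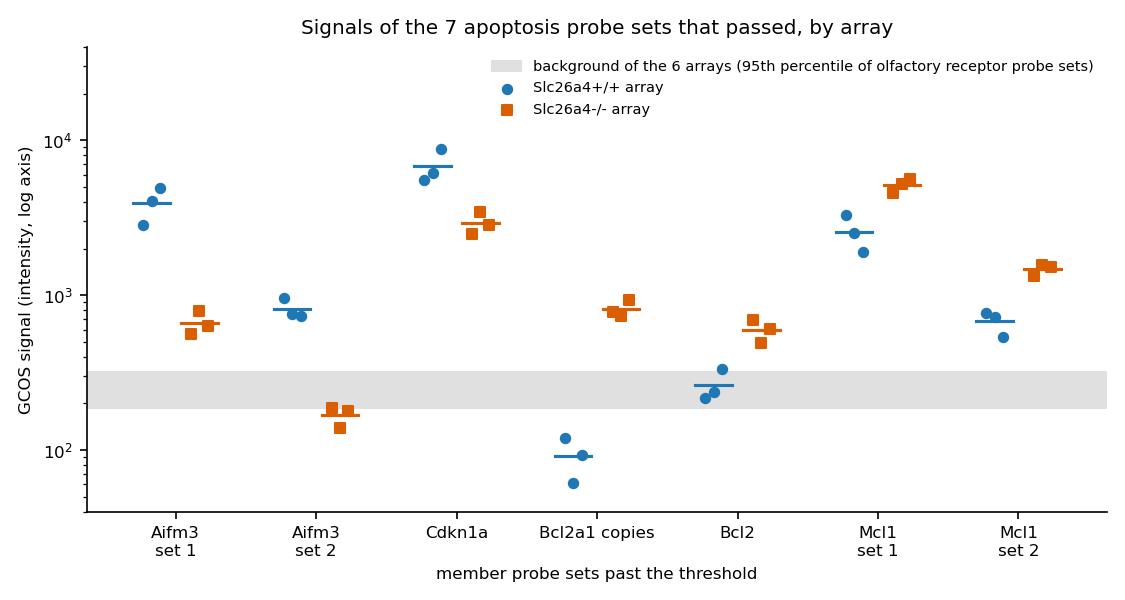
Signal (log axis) on each of the 6 arrays for the 7 apoptosis probe sets with an adjusted p under 0.05, with the array background. In each panel the 3 Slc26a4-/- arrays lie entirely on one side of the 3 Slc26a4+/+ arrays, and the Slc26a4+/+ arrays of the Bcl2a1 copies lie below background.

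Cdkn1a fell. It encodes p21, the inhibitor of cyclin-dependent kinases that p53 induces to halt the cell cycle. RefSeq annotates more than one start for the gene, and the stretch before the first is shown because it holds a p53-type sequence pair. It lies on the plus strand at chr17:29090906-29090969, with the pair and the bases between in capitals.
Cdkn1a: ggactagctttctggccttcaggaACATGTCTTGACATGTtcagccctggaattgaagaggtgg
The letters searched on both strands, ACATGT, any 4 bases and ACATGT again, stood in 4 of the 32851 promoters, or 0.0122%. Among the members with a promoter entry, 1 held it. These letters too were chosen after the sequences were seen, so the counts are a description only. Neither of the other motifs searched matched before this start.

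The brighter Cdkn1a probe set read 5520.1, 6170 and 8835 in the controls and 2487, 3450 and 2855 in the knockouts. The genotypes did not overlap. It fell by 1.21 ± 0.20 on the log2 scale, 2.31-fold lower in Slc26a4-/- mice (adjusted p = 0.0154). The other Cdkn1a probe set read 653, 1197 and 104 against 905, 567 and 509, and differed by 0.56 (adjusted p = 0.823). The controls of that probe set spanned the knockout values, so that the fall rests on the brighter probe set.

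Cdkn1a did not pass without the second Slc26a4+/+ array, or without the first or the last Slc26a4-/- array. It also did not pass with a signal floor of 16 or without the trend of the fit. Over all 19 alternatives its difference ranged from -1.35 to -1.01 and its adjusted p reached 0.536. Mdm2, the ubiquitin ligase that removes p53 and is itself a p53 target, read 1327, 649 and 362 against 1068, 884 and 872. The Slc26a4+/+ arrays alone spread over the whole range, and the difference of 0.47 did not pass (adjusted p = 0.700). The other Mdm2 probe set above background differed by -0.40 and did not pass.

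Among the survival proteins, the Bcl2a1 copies rose. They encode A1, a short-lived relative of BCL2 that is made in blood-derived cells. The mouse holds several near-identical copies on chromosome 9, and which copy gave the signal cannot be told apart. Stretches before their starts are shown because they show how close the copies are. Capitals mark letters that resemble the binding sequence of ETS-family factors such as PU.1. From RefSeq (GRCm38.p6), Bcl2a1a is chr9:88956791-88956850, Bcl2a1b chr9:89199100-89199159 and Bcl2a1c chr9:114329896-114329955 on the plus strand, and Bcl2a1d chr9:88731920-88731979 on the minus strand.
Bcl2a1a: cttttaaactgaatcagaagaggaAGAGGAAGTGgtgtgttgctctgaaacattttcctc
Bcl2a1b: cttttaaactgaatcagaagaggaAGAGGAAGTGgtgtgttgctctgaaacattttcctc
Bcl2a1c: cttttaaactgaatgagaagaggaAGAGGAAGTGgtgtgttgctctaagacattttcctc
Bcl2a1d: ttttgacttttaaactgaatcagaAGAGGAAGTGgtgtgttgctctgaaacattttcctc
From the capitals on, Bcl2a1a, Bcl2a1b and Bcl2a1d were identical over 36 bases and Bcl2a1c differed at 2. Those bases include the capitals, which are alike in all copies because the stretches were found by them. In the bases shown before the capitals, Bcl2a1c and Bcl2a1d each differed from Bcl2a1a and Bcl2a1b. The capitals, searched on both strands, stood in 106 of the 32851 promoters, or 0.323%, and in none of the other 47 members with a promoter entry. These letters were chosen after the sequences were seen, so the counts are a description only.

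The Bcl2a1 probe set read 119, 61.2 and 93.1 on the Slc26a4+/+ arrays, all below background, and 773, 732 and 927 in the knockouts, all above it. The genotypes were far apart. Because the controls give only a bound, the signal was at least 3.13-fold higher in Slc26a4-/- mice (limma adjusted p = 0.000506). The other Bcl2a1 probe sets were not above background.

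Macrophage markers moved with the Bcl2a1 copies. The summed signal of 12 macrophage marker genes was 8465 to 10832 in the controls and 43482 to 45369 in the knockouts. In all 12 the knockout arrays lay above the controls, and 11 passed the test. The 8 markers of T, NK and B cells and neutrophils were below background on every array. The part of macrophages in the rise of the Bcl2a1 copies was not tested.

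Mcl1, the short-lived survival protein that binds BH3-only proteins, gave a divided result over its 6 probe sets. The probe set with the largest rise read 768, 728 and 538 in the controls and 1333, 1555 and 1522 in the knockouts, a rise of 1.13 ± 0.17 on the log2 scale (adjusted p = 0.0115). Another read 3274, 2502 and 1910.0 against 4554, 5215 and 5647, a rise of 1.03 ± 0.20 (adjusted p = 0.0302). In both, all knockout arrays lay above all controls. A further probe set was also apart but differed by 0.40 (adjusted p = 0.249). The brightest probe set read 7203, 9733 and 11320 against 8972, 10107 and 9531 and differed by 0.04 (-0.35 to 0.44). That probe set and the pair with differences of 0.09 and 0.14 carry the suffix _x_at, by which the manufacturer marks probes that may also match other transcripts. Neither of the called probe sets passed once the arrays were centred on their medians or any 1 of the knockouts was left out. The one with the rise of 1.03 also did not pass without the second control. The differences of the called probe sets stayed between 0.97 and 1.23 and between 0.83 and 1.23 over the 19 alternatives.

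Bcl2, the founding survival protein of the family, was likewise divided over 5 probe sets. The one that passed read 217, 236 and 335 in the controls and 690, 494 and 602 in the knockouts. Its knockout arrays all lay above its controls, and it rose by 1.19 ± 0.23 on the log2 scale (adjusted p = 0.0355). A pair of dimmer probe sets were apart in the same direction, at 1.24 (adjusted p = 0.126) and 1.01 (adjusted p = 0.249) as fitted. Of the control arrays, 1 was above background in the former and 0 in the latter, so that the size of these differences is uncertain. The latter also carries the suffix _x_at. The brightest read 988, 1273 and 1194 against 1502.5, 1376 and 1265 and overlapped, with a difference of 0.27 (adjusted p = 0.561). The probe set that passed lost its call without the second control and without any 1 of the knockouts. Its difference stayed between 1.02 and 1.38 over the 19 alternatives.

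**Figure D3:**
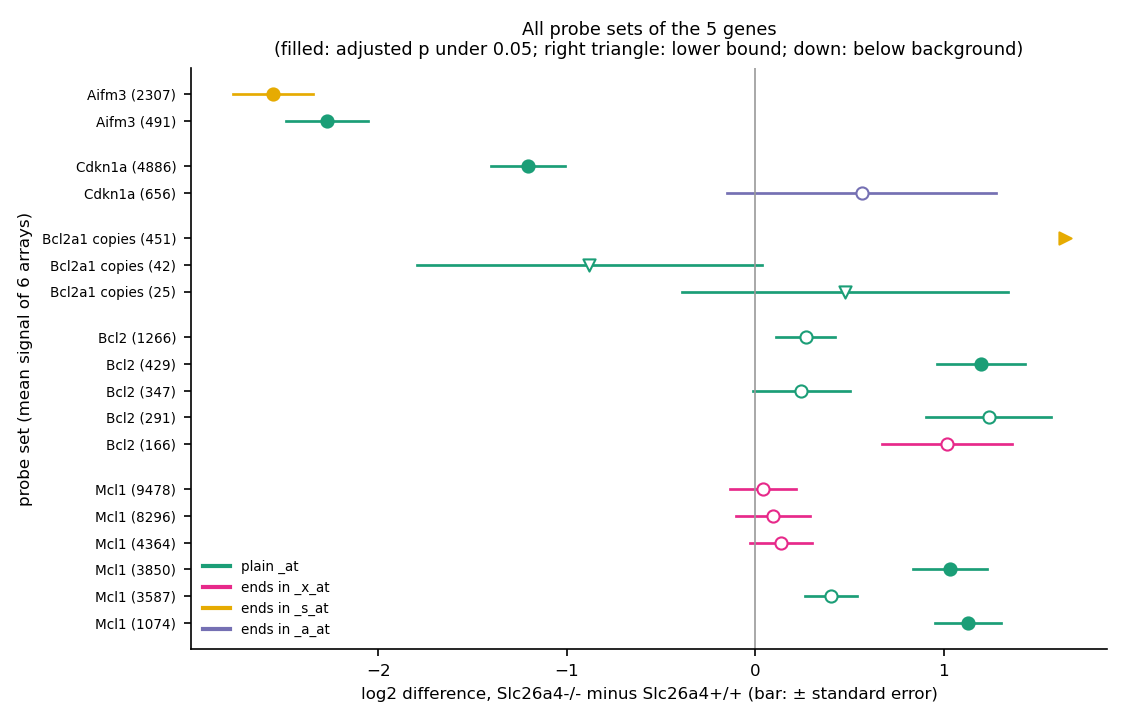
The log2 difference between genotypes (horizontal axis, bars are ± standard error) for every probe set of the 5 genes with a called probe set, labelled with the mean signal over 6 arrays. The Aifm3 probe sets lie together, whereas those of Mcl1 spread from 0.04 to 1.13 and those of Bcl2 from 0.24 to 1.24.

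The remaining survival proteins above background were Bcl2l1, which encodes BCL-XL, and Bcl2l2, which encodes BCL-W. Bcl2l1 read 2268, 3155 and 3320.0 in the controls and 2946, 2976 and 2917 in the knockouts. The knockout values sat inside the control range, and the interval of the difference was -0.33 to 0.40. Bcl2l2 differed by -0.08 (-0.53 to 0.38).

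No pore-forming or BH3-only gene passed. Bak1 and Bok, which form pores, were below background. Of the 8 BH3-only genes, 6 were above background. Bcl2l11, which encodes BIM, read 2557, 2578 and 3901 in the controls and 2140, 1997 and 2360 in the knockouts. All knockout arrays were the lower ones, but the difference of -0.45 did not pass (adjusted p = 0.356). Bad gave a difference of 0.00 with an interval of -0.63 to 0.62, which leaves room for a change in either direction. The other Bad probe set had its genotypes apart at -0.32, which did not pass. Bik read 412, 571 and 581 against 339, 504 and 452 and overlapped, with a difference of -0.27 (adjusted p = 0.701). Bbc3 (PUMA), Bmf and Hrk differed by -0.09, -0.03 and 0.16, and each overlapped between genotypes. Bid, which links death receptors to mitochondria, and Pmaip1 (NOXA) were below background. Of the BCL2-like genes with a less settled role, Bcl2l14 read 516, 448 and 517 against 455, 561.5 and 272, and its lowest knockout array stood alone. Bcl2l13, a mitophagy receptor, read 770.0, 675 and 492 against 546, 572.5 and 580 and overlapped.

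No factor that mitochondria release to free caspases passed. Htra2, a protease that cleaves IAPs, read 320.2, 427 and 466 in the controls and 506, 577 and 608 in the knockouts. Its genotypes were apart, with a difference of 0.49 (adjusted p = 0.364). Diablo (SMAC), which binds IAPs, read 684, 844 and 642 against 862, 914 and 873.5. Here too the genotypes were apart, at 0.30 (adjusted p = 0.531). Endog, a mitochondrial nuclease, differed by -0.12 and overlapped, and Apaf1, the scaffold of the apoptosome, was below background.

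No caspase passed. Casp8, the initiator used by death receptors, read 836, 730 and 493 in the controls and 966, 1034 and 957 in the knockouts. The genotypes were apart, and the difference of 0.56 had an interval of 0.10 to 1.01 (adjusted p = 0.297). Casp2 read 1070.3, 959 and 1078 against 1096, 1165 and 1146, a narrow separation of 0.13 (adjusted p = 0.773). Casp9, the initiator of the apoptosome, differed by 0.15 and overlapped.

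Casp6, an executioner, read 1035, 981 and 820.1 against 872, 950.4 and 788. The values interleaved, and the interval of the difference was -0.47 to 0.24. Casp14, the caspase of the cornifying epidermis, read 713, 968 and 987 against 633, 709.5 and 813, a difference of -0.30. Casp8ap2, a partner of Casp8, read 1424, 984 and 615 against 1317, 1065 and 1081, a difference of 0.27. Both overlapped, Casp8ap2 because its controls alone covered the whole range. The inflammatory caspases Casp1, Casp4 and Casp12 were below background on all 6 arrays.

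Within the IAP family no gene passed. Birc3, which encodes cIAP2, read 760.5, 588.5 and 711 in the controls and 758, 982.5 and 1096 in the knockouts. The lowest knockout array fell among the controls, and the difference was 0.45 (adjusted p = 0.372). Xiap, the direct inhibitor of executioner caspases, read 2116, 1834 and 1446.5 against 2215, 1928 and 2028. It overlapped, with a difference of 0.21 (-0.16 to 0.58), whereas the other Xiap probe set above background differed by -0.33. Birc2 differed by 0.24 and Birc6 by -0.17. Birc5 (survivin) and Birc7 were below background.

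In the death receptor complex, Tradd, the adaptor of the TNF receptor, read 498, 517 and 422 in the controls and 601, 685 and 703 in the knockouts. Its genotypes were apart, with a difference of 0.47 that did not pass (adjusted p = 0.294). Cflar (FLIP), which blocks Casp8, read 1467, 1214 and 774 against 1342, 1313 and 1411, a difference of 0.28. It overlapped, as did Fadd, the adaptor of Casp8, at 0.25. The other Cflar probe sets above background differed by 0.35, 0.14 and -0.40. Fas, Fasl and Ripk3 were below background. Among the nuclear targets, Parp1, a caspase substrate that signals DNA damage, read 953, 1910.2 and 1502 against 1045, 923 and 988 in its brightest probe set. That difference was -0.51 (adjusted p = 0.432), and those of its other probe sets above background were 0.34 and 0.46. The sign was thus not shared between them. Dffa, the inhibitor of the apoptotic nuclease, read 508, 420.4 and 574 against 397, 472 and 495 and differed by -0.13.

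Of 64 further genes of the pathway on the array, 2 were higher and 0 lower. That was 3.125% of them, near the 2.68% of all genes called. Plk2, a kinase induced by p53, read 598, 565 and 476 in the controls and 1530.2, 1097 and 1689 in the knockouts, a rise of 1.38 ± 0.19 on the log2 scale (adjusted p = 0.00716). It was the only one of 16 p53 target genes to pass, and rose where Cdkn1a fell. Pycard, the ASC adaptor of the inflammasome, read 680, 582 and 582 against 1437, 1349 and 1522, a rise of 1.23 ± 0.15 (adjusted p = 0.00313). It was the only one of 12 necroptosis, pyroptosis and inflammasome genes to pass. Neither gene overlapped between genotypes. None of 15 TNF receptor signalling genes, 9 cytochrome c, VDAC and mitochondrial membrane genes or 12 BNIP, BAG and other BCL2 partners passed.

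Markers of strial cells and of the adjacent spiral ligament moved as well. The summed signal of 8 marginal cell markers was 60952 to 76526 in the controls and 44108 to 47162 in the knockouts, with 2 of the 8 called lower. That of 6 spiral ligament fibrocyte markers was 16840 to 18739 against 24802 to 27420.0, with 4 of the 6 called higher. In its qRT-PCR samples, the paper found slight carry-over between stria and ligament, more in Slc26a4-/- than in Slc26a4+/- mice. Its part in the array signals was not tested. The sums of intermediate cell markers, 41979 to 50440.0 against 48802 to 49726, overlapped, although 2 of the 6 markers were called higher, the pigment cell genes Tyrp1 (5.19 on the log2 scale) and Pmel (1.64). The part of these cell types in the changes of Aifm3, Cdkn1a, Mcl1 and Bcl2 was not tested.

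**Figure D4:**
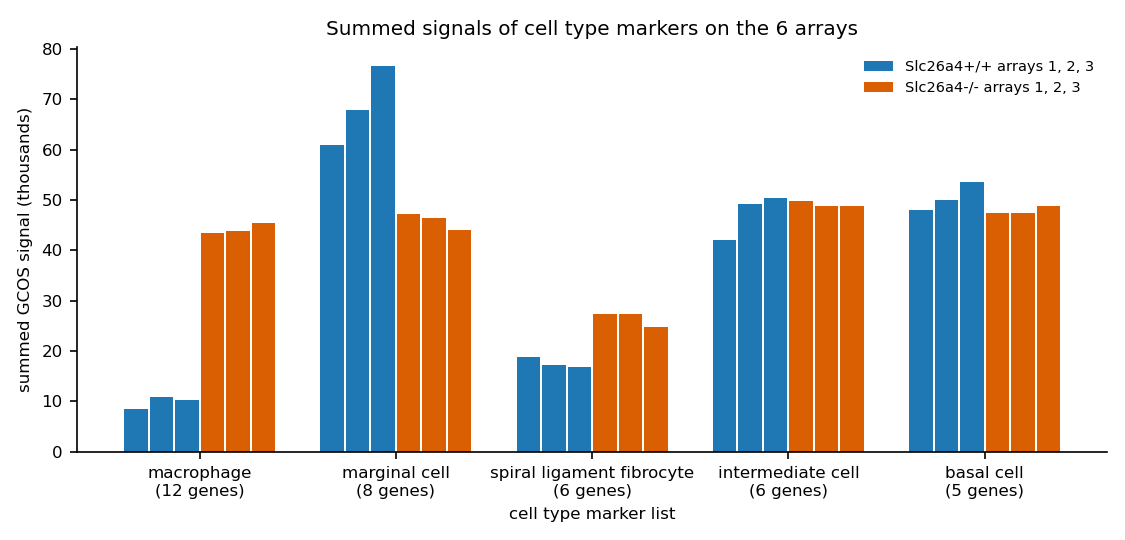
Summed signal of each list of cell type markers on each of the 6 arrays, Slc26a4+/+ and Slc26a4-/-. Macrophage markers are higher and marginal cell markers lower on all 3 Slc26a4-/- arrays, and intermediate cell markers overlap.

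With the Gapdh ratio as a covariate, Aifm3 differed by -2.34, Cdkn1a by -1.05 and the Bcl2a1 copies by 3.03 as fitted, and all passed. The Mcl1 probe sets with rises of 1.13 and 1.03 then differed by 1.01 and 0.83. The called Bcl2 probe set differed by 1.34, and these passed too. With the Xist signal as a covariate, which varies largely with genotype, the Bcl2a1 copies passed (adjusted p = 0.0393) and Aifm3 (-2.79, adjusted p = 0.0881) and Cdkn1a (-1.13, adjusted p = 0.533) did not. The called Mcl1 and Bcl2 probe sets did not pass with the Xist covariate either.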

How the data were processed

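RNA of stria vascularis was hybridized to 6 one-color Affymetrix arrays. The authors deposited 1 signal intensity per probe set and array, made with GCOS according to the submitters' processing notes and no source used here gives its version or scaling target. Gene symbols came from the platform annotation: of 45037 probe sets tested, after 64 control probe sets were left out, 34945 had 1 symbol, 932 several and 9160 none. All 52 member genes with 1 symbol matched the RefSeq gene table.

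Signals were floored at 1, converted to log2 and compared between genotypes without further normalization by limma (version 3.58.1, R version 4.3.3; lmFit, and eBayes with a trend), with Benjamini-Hochberg adjustment over all probe sets and a threshold of 0.05. The highest mean log2 signal chose the probe set of a gene. Above background meant at least 2 arrays of a genotype over the 95th percentile of 44 probe sets for olfactory receptors. A bound used each control array's background. Signals of different probe sets were not set against each other. Array values were given for each member gene with a called probe set and, in each role group, for the 2 members above background with the smallest p, and pathway genes were named where they passed. Aifm2, Bcl2l1, Bad and other members given by difference were chosen after their values were seen. Members and lists were chosen with earlier results of these data known, and the motif letters after the sequences were seen.

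Same-numbered arrays deviated together weakly (correlations 0.25, 0.16 and 0.11 over probe sets above background). The pools are not described as matched pairs, and the main fit was unpaired. Arrays were paired by number only in the replicate block and the paired t-test. Alternatives were other floors, pseudocounts, normalizations, filters, weights, covariates and probe set rules, the methods' paired t-test and fold of 1.3, and each array left out. The fit was tested on simulated data.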

Additional observations from a re-analysis of the deposited data

How the results depend on the processing

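With 3 pooled arrays per genotype, genes near background allowed bounds at most. The replicate block kept 4 higher and 3 lower member probe sets and changed no call of a member. The 7 member probe sets called became 1 with the Xist covariate, 13 with array weights, 3 with a floor of 16, 3 without the trend, 50 by a fold of 1.3 alone, 0 by the paired t-test (14 at an unadjusted p under 0.05) and 3 to 9 with an array left out. They were 2 higher and 3 lower after median centring. The 3 member genes became 1 (Xist), 5 (weights), 17 (fold) and 0 (t-test, 5 unadjusted). The 2 pathway genes became 0 (Xist), 11 (weights), 1 (floor), 0 (trend), 16 (fold), 0 (t-test, 6 unadjusted), 0 with the mean of all probe sets and 1 to 5 with an array left out. The 778 probe sets called became 27 (Xist), 4084 (weights), 456 (floor), 114 (trend), 19497 (fold), 0 (t-test, 3980 unadjusted), 1231 with the Gapdh covariate, 448 after median centring (80.1% higher, against 68.8%) and 219 to 1714 with an array left out. The cause was not tested. Reversed differences, none of them called, were, with the Xist covariate, Bcl2 -0.0070, Dffa 0.20, Diablo -0.044 and Mcl1 (brightest) -0.17. They were 0.063 for Dffa with array weights, and -0.029 for Casp8ap2 and -0.016 for Mdm2 with the Gapdh covariate. With an array left out, Bcl2l14 ranged from -0.48 to 0.038, Casp8ap2 from -0.043 to 0.56 and Mcl1 (brightest) from -0.14 to 0.19. Aifm3 passed in 17 and the Bcl2a1 copies in 18 of 19 alternatives. Cdkn1a passed in 12, the called Bcl2 probe set in 11 and the called Mcl1 probe sets in 11 and 10.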

Other observations

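The genotypes were apart in 12 of the 64 pathway genes, 7 higher and 5 lower, or 18.75%, beside 20.9% of all genes. Plk2 and Pycard among them passed, and the other genes are given by their values. Bnip3, a BH3-like protein of mitophagy, read 4248, 4416 and 2597 in the controls and 2342, 2459 and 2070 in the knockouts, a difference of -0.68 (adjusted p = 0.179). Vdac1, the main channel of the outer mitochondrial membrane, differed by -0.50 (adjusted p = 0.302). Btg2, a p53 target that slows the cell cycle, differed by 0.52 (adjusted p = 0.217), and Ei24, another p53 target, by -0.52 (adjusted p = 0.111). Map3k5, a kinase of TNF signalling, differed by 0.34 (adjusted p = 0.329), and Bag4 and Bag1, co-chaperones, by -0.29 and -0.17. Mlkl, the effector of necroptosis, differed by 1.85 (adjusted p = 0.0919) with 1 array above background, and Zbp1 (2.29, adjusted p = 0.297) and Eda2r (0.43) were below background on all 6 arrays. Cycs, cytochrome c itself, read 12813, 14224 and 15549 against 13117, 12869 and 13150 and overlapped.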
